A study of Mus musculus with 4 samples.

Results

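Glycolysis splits glucose into pyruvate in the cytosol, and lactate dehydrogenase turns pyruvate into lactate, which leaves the cell through monocarboxylate transporters. Many of its enzyme genes are targets of hypoxia-inducible factor 1 (HIF-1), whose alpha subunit, encoded by Hif1a, is marked for destruction by oxygen-dependent prolyl hydroxylases of the EGLN family. In lymphocytes this program also responds to cytokine and mTOR signals at normal oxygen, and group 3 innate lymphoid cells (ILC3s), tissue lymphocytes without rearranged antigen receptors, are known to use glycolysis when activated. The genes described here are a list of 35, chosen by name from textbook members of glycolysis and the hypoxia response, of 18191 gene names in the deposited tables. Earlier results of these data were known when the list was chosen, so its shares beside those of all genes are descriptive only. There are 18 glycolytic enzymes and transporters, 3 flux regulators, and 14 genes of HIF-1, its oxygen sensors and its targets.

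RNA was sequenced from ILC3s of the mouse small intestine, sorted as live cells low for CD45, negative for CD3 and high for CD90.2. In the first pair of libraries, ILC3s of Il17d-KO mice, which lack the cytokine IL-17D, are set beside ILC3s of wild-type (WT) mice, both at steady state. In the second pair, CD93-positive ILC3s are set beside CD93-negative ILC3s, both from WT mice and also labelled steady state; CD93 is a surface glycoprotein. Each of the 4 groups has 1 library, so no difference has a replicate check and no p-value is given. Cells were kept unstimulated in culture for 12 h ahead of the CD93 sort, and the sources used here do not say whether the KO and WT cells were cultured too. The strain, age and sex of the mice, the design of the knockout and the number of animals behind a library are not stated there either.

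Levels are the FPKM values that the authors deposited, which divide the reads of a gene by its length and by the reads of its library. A difference is the log2 of (FPKM + 1) in one library over (FPKM + 1) in the other. In the sentences that follow, "with CD93" and "without" name the CD93-positive and CD93-negative library, and where a pair of FPKM values stands alone the CD93-positive or the KO value comes before the other. Genes that reached 1 FPKM in 1 library of a pair or more count as measured. Differences past 2-fold on this scale are counted, with 1.5-fold as a lower limit, and since the added 1 understates the change of low genes the plain FPKM ratio is given too. Intervals after a ratio are 95% exact (Clopper-Pearson) intervals from the recovered reads, and they cover counting error only: PCR copies cannot be told from separate molecules in these reads. The read totals behind the FPKM scaling were 27002581 (KO) and 26087274 (WT) in the KO and WT pair, and 11712846 (with CD93) and 11790580 (without) in the other. The ILC3 receptor gene Il7r was at 303 and 230 FPKM in KO and WT ILC3s, and at 85.7 and 86.8 in the CD93 pair. Cd93 itself was 1.94 times higher (1.88 to 2.00) in the CD93-positive library, with 155.0 against 79.9, and Il17d, the gene the knockout targets, is not analysed here.

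Of the 35 genes, 34 were tabulated and measured in the CD93 pair, and 32 were tabulated and 30 measured in the KO and WT pair. Ero1l was not analysed in the CD93 pair, nor Slc16a3, Pfkfb4 and Aldoc in the KO and WT pair. The tables of the pairs were made with different gene sets, so levels are compared only within a pair.

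HIF-1 binds the core letters ACGTG or GCGTG, and the promoters of the list were searched for them because many of its members are textbook targets of this factor. Promoter windows (RefSeq, build GRCm38.p6; the 250 bases upstream of a start) were found for 32 of the 35 genes. Either motif, on either strand, was in a window of 30 of these 32 genes (93.8%), against 62.5% of the 8182 genes with a window among those measured in the CD93 pair and 41.5% of all 27025 genes with windows. A gene with more windows has more room for a match: the list had 49 windows and those measured genes 10381. Counted per window, the shares were 79.6% for the list, 56.9% for those measured genes and 38.6% for all windows. Counted per gene, at least 2 matches in a window were found for 21 of the 32 genes (65.6%), against 28.8% of those measured genes and 15.5% of all genes. ACGTG was held by 49.0% of the list's 49 windows, by 22.3% of windows of those measured genes and by 16.6% of all 32851 windows. GCGTG was held by 53.1%, 45.5% and 28.2% in the same order, so for GCGTG the list lay nearer to the measured genes than to all windows. The palindrome CACGTG, an E-box that other factors bind, holds ACGTG on both strands and was counted as 1 match. It was in 10.2% of the list's windows, 8.48% of those of genes measured in the CD93 pair and 6.02% of all windows. A match is a description of the letters, not of a bound site. The 8 stretches of 120 bases below, none of which overlaps an exon in the GENCODE M21 annotation, are shown 5′ to 3′ on the gene's strand with every match in capitals. The leading 5 belong to genes that were higher in CD93-positive ILC3s, and the last 3 to hypoxia response genes that were under 1.5-fold apart or lower there.
Ddit4 (chr10:59951860-59951979, minus strand): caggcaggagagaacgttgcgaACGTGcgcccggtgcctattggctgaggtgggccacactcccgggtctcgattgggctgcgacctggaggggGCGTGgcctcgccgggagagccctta
Pgam1 (chr19:41911682-41911801, plus strand): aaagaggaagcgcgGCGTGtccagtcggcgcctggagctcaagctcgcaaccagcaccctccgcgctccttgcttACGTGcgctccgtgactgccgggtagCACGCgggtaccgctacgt
Hk2 (chr6:82774585-82774704, minus strand): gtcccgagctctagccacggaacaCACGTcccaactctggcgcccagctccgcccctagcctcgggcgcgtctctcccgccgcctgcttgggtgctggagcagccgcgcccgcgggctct
Ldha (chr7:46845657-46845776, plus strand): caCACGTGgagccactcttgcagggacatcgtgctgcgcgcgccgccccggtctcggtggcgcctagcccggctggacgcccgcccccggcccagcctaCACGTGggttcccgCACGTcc
Hif1a (chr12:73907707-73907826, plus strand): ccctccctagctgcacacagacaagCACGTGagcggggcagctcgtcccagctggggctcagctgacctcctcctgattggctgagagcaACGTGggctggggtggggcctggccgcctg
Bnip3 (chr7:138909521-138909640, minus strand): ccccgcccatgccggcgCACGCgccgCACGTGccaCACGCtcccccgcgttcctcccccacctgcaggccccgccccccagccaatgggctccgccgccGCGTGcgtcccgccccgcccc
Ankrd37 (chr8:45999981-46000100, minus strand): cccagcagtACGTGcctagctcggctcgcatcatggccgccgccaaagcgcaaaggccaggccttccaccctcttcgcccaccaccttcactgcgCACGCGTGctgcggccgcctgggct
Mxi1 (chr19:53329289-53329408, plus strand): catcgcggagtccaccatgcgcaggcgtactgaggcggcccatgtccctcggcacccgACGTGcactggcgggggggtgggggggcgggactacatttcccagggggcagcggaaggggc
CACGTG occurs in the Ldha, Hif1a and Bnip3 stretches, and the Hk2 and Ankrd37 windows each have a further ACGTG match outside the stretch shown. The Bnip3 and Ankrd37 windows, with 4 matches each, belong to genes that lay under 1.5-fold apart in the CD93 pair, and the Ddit4 and Hk2 windows, with 2 each, to genes past 2-fold.

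The glycolytic enzyme genes of the list were higher in the CD93-positive than in the CD93-negative library. All 15 measured enzyme genes from hexokinase to lactate dehydrogenase had a higher FPKM in the CD93-positive library, by 1.11 to 2.06 times, with 2 of them, Hk2 and Pgam1, past 2-fold. Their summed FPKM was 2847 with CD93 and 1724 without, which is 1.11% and 0.759% of all FPKM in each library. With both libraries scaled to the same sum, Gpi1 and Pfkp turned to the other direction and the other 13 enzymes did not.

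Over the 34 genes of the list, 3 (Ddit4, Pgam1 and Hk2) were past 2-fold on the CD93-positive side, where 2.49% of the 10117 measured genes were, and 0 on the other side (1.94% of measured genes). At the limit of 1.5-fold, 16 of 34 were higher, against 7.62% of measured genes, and 2 were lower, against 6.92%. By any amount 28 were higher and 6 lower, against 54.4% and 45.6% of measured genes. The median difference of the list was 0.49 in log2, with lower and upper quartiles of 0.15 and 0.81, against a median of 0.04 over all measured genes. High genes of this pair leaned to the same side: among the 2839 genes that reached 20 FPKM, 62.3% were higher with CD93, 11.0% past 1.5-fold and 3.87% past 2-fold, with a median of 0.11. Past 2-fold in the other direction were 1.80%. Of the 24 list members at that level, 23 were higher, 15 of them past 1.5-fold, with a median of 0.67.

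**Figure D1:**
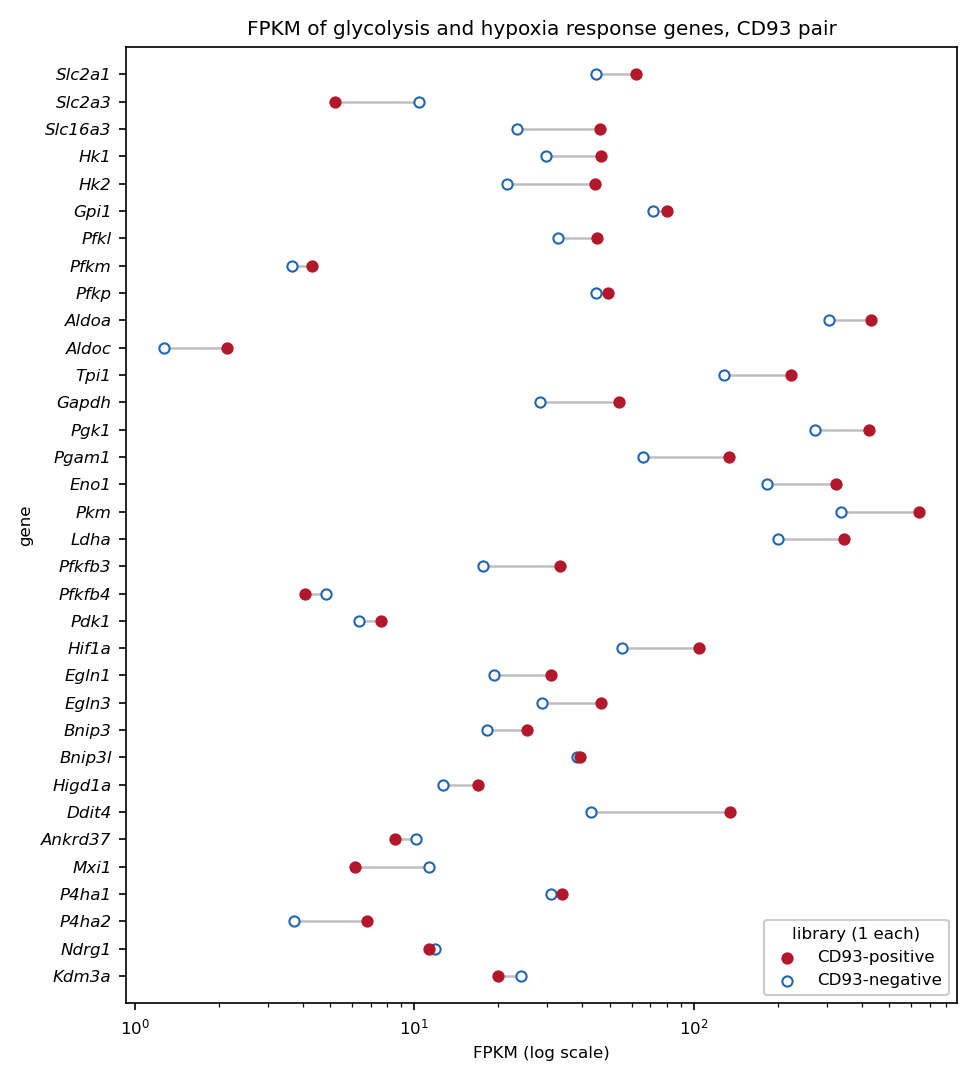
FPKM (log axis) of the 34 tabulated genes of the list in the CD93-positive (filled) and CD93-negative (open) library, 1 library each, joined by a line per gene and ordered by role. The filled point lies to the right for 28 genes; Slc2a3 and Mxi1 have the widest gaps in the other direction.

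Glucose enters lymphocytes through the facilitative transporters GLUT1 and GLUT3. Slc2a1, which encodes GLUT1, stood at 62.0 FPKM with CD93 and 44.8 without, 1.38 times higher (1.30 to 1.47). Slc2a3, which encodes the high-affinity transporter GLUT3 (chromosome 6, 122727809 to 122801640, minus strand), had 5.20 and 10.4, 2.01 times lower (1.79 to 2.26) as a ratio of FPKM and -0.88 on the log2(FPKM + 1) scale, under the 2-fold limit. The glucose transporter genes thus went in opposite directions. Slc16a3, which encodes the lactate exporter MCT4, had 46.2 and 23.4, 1.98 times higher (1.86 to 2.11).

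The preparatory steps, from hexokinase to triose phosphate, spend ATP and split the hexose. Hk2, the inducible hexokinase (chromosome 6, 82725025 to 82774454, minus strand), stood at 44.5 FPKM with CD93 and 21.6 without, 2.06 times higher (1.94 to 2.19). Hk1, the constitutive hexokinase, had 46.6 and 29.6, 1.57 times higher (1.501 to 1.65). The ratio of Hk2 to Hk1 was 0.955 with CD93 and 0.728 without, so the hexokinases were closer in level in the former library.

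The phosphofructokinase genes encode the main rate-setting step, as liver (Pfkl), muscle (Pfkm) and platelet (Pfkp) isoforms. Pfkp stood at 49.4 FPKM with CD93 and 44.6 without, and Pfkl had 45.0 and 32.7. Pfkm, at 4.32 and 3.66, had an interval of the ratio that included 1 (0.940 to 1.49). These genes, with Gpi1, the glucose-6-phosphate isomerase (80.4 and 71.6), were the enzymes with the smallest differences, 1.11 to 1.38 times. The aldolase gene Aldoa had 432 and 305 and its paralog Aldoc, at a far lower level, 2.15 and 1.27. Tpi1, the triose phosphate isomerase gene, had 223 and 128, 1.74 times higher (1.67 to 1.80).

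All 6 genes of the later, ATP-yielding steps and of lactate formation were past 1.5-fold on the CD93-positive side, with a median difference of 0.86 against 0.47 for the 9 preparatory enzymes. Pgam1, the phosphoglycerate mutase gene (chromosome 19, 41911923 to 41918660, plus strand), stood at 133 FPKM with CD93 and 65.7 without, 2.03 times higher (1.91 to 2.16). Pkm, the pyruvate kinase gene and the highest of the list in this pair, had 641 and 337, 1.91 times higher (1.87 to 1.94). Gapdh had 54.2 and 28.3, Eno1, an enolase gene, 323 and 183, and Ldha, a lactate dehydrogenase gene, 344 and 201. Pgk1, the phosphoglycerate kinase gene, had 424 and 271, the smallest ratio of the 6 at 1.57 (1.52 to 1.61). The level of Gapdh was 12.8% and 10.4% of that of Pgk1 in the same libraries. GENCODE M21 holds 198 pseudogenes that match Gapdh transcripts at 90% identity or more over at least 200 bases, the most for any gene of the list, and the sources used here do not say how reads that match several places were counted.

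The regulators of glycolytic flux did not share a direction. Pfkfb3, whose product makes the phosphofructokinase activator fructose 2,6-bisphosphate, stood at 33.1 FPKM with CD93 and 17.6 without, 1.88 times higher (1.77 to 2.00). Its paralog Pfkfb4 had 4.08 and 4.82, with an interval that included 1 (0.708 to 1.01). Pdk1, a pyruvate dehydrogenase kinase gene, had 7.59 and 6.36, 1.19 times higher (1.07 to 1.34).

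Hif1a (chromosome 12, 73901375 to 73947530, plus strand) stood at 104.6 FPKM with CD93 and 55.4 without, 1.89 times higher (1.82 to 1.96). The prolyl hydroxylase genes were also higher, Egln1 with 31.0 and 19.3 and Egln3 with 46.7 and 28.6, 1.60 (1.47 to 1.75) and 1.63 times (1.501 to 1.78). Both hydroxylase genes are textbook targets of HIF-1 as well as its sensors, and their ratio to each other was 1.51 and 1.48 in the CD93-positive and CD93-negative library. Of 17 measured HIF pathway components outside the list, 0 were 1.5-fold apart, with a median of -0.07. Among all measured genes 7.62% were past 1.5-fold higher and 6.92% lower, so a count of 0 among 17 is not read as a result. Arnt, the partner subunit of HIF-1, had 15.5 and 17.4, and Vhl, the ubiquitin ligase subunit that recognises hydroxylated HIF, had 15.9 and 17.7.

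The hypoxia response genes outside glycolysis split. Ddit4 (chromosome 10, 59949669 to 59951834, minus strand), which encodes REDD1, an inhibitor of mTOR complex 1 induced by hypoxia, glucocorticoids and stress, stood at 134.7 FPKM with CD93 and 43.0 without, 3.13 times higher (2.91 to 3.38). It had the largest ratio of the list in this pair. P4ha2, a collagen prolyl hydroxylase subunit, had 6.76 and 3.72, 1.81 times higher (1.56 to 2.11), while its paralog P4ha1 had 33.9 and 31.0 and turned direction with both libraries scaled to the same sum. The mitochondrial genes Bnip3 and Bnip3l, which encode mitophagy receptors, had 25.3 and 18.2, and 39.1 and 38.3; the interval of the Bnip3l ratio included 1 (0.956 to 1.09), and Bnip3l turned direction under both other scalings. Higd1a, a mitochondrial protein of the respiratory chain induced in hypoxia, had 16.9 and 12.7.

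Mxi1, which encodes an antagonist of MYC (chromosome 19, 53310518 to 53375810, plus strand), went the other way, at 6.13 FPKM with CD93 and 11.3 without, 1.84 times lower (1.65 to 2.06). Kdm3a, a histone H3 lysine demethylase, was 1.21 times lower (1.14 to 1.29), at 19.97 and 24.1. Ankrd37 (8.54 and 10.1) and the stress gene Ndrg1 (11.3 and 11.9) had intervals that included 1. The 19 genes of the list outside the 15 enzymes had a median difference of 0.38, with 13 higher and 6 lower, so that every gene on the lower side was a transporter, a regulator or a hypoxia target. In all, 28 of the 33 genes with recovered reads had a counting interval that excluded 1 in this pair, as did 54.1% of all 12169 genes with recovered reads. Among genes that reached 20 FPKM these were 22 of 23 members and 78.8% of all 2773.

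**Figure D2:**
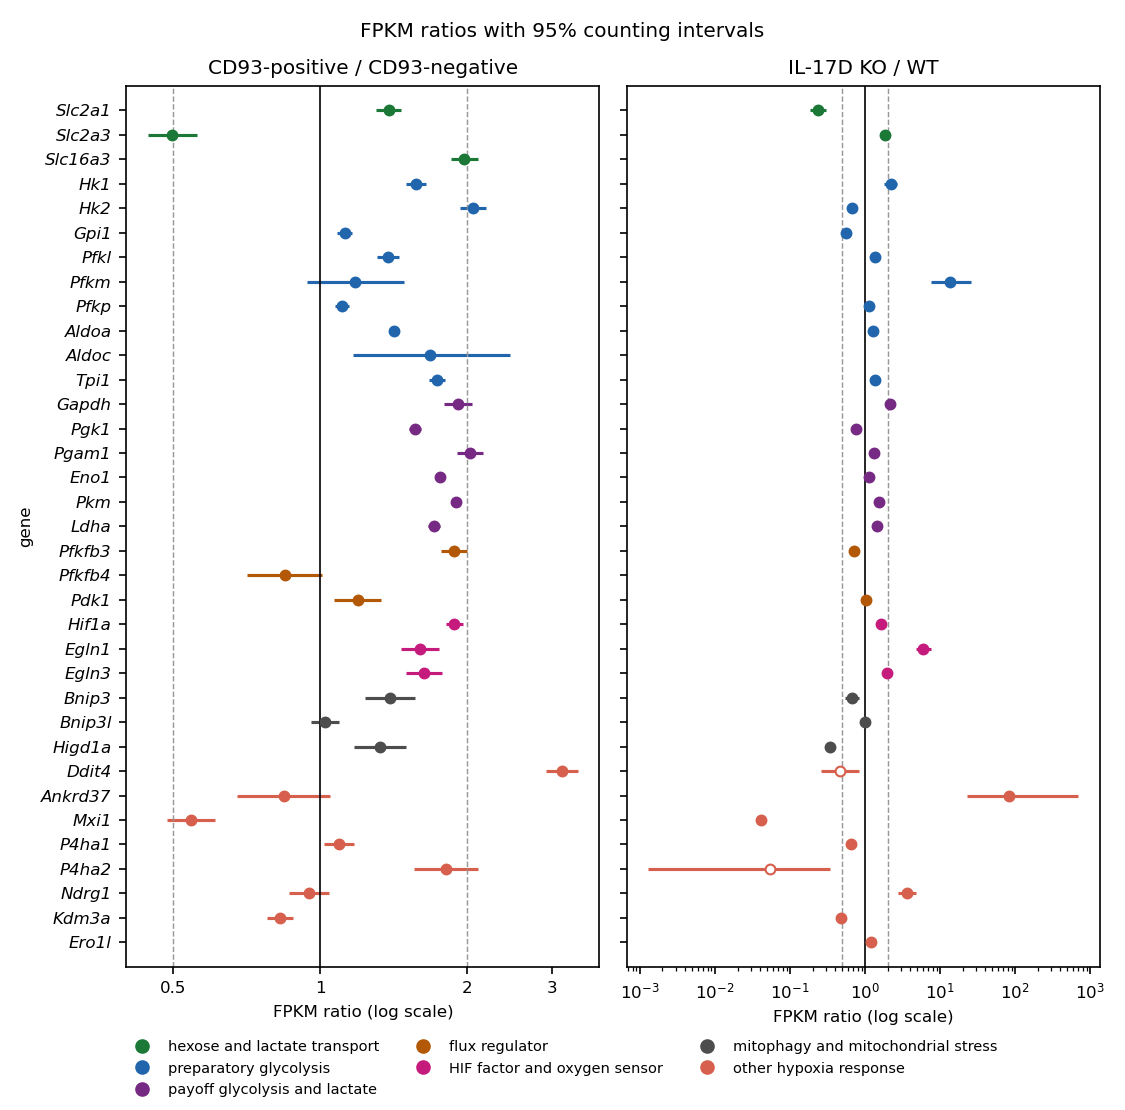
FPKM ratios (log axes) with 95% counting intervals, CD93-positive over CD93-negative (left) and IL-17D KO over WT (right), 1 library per group, coloured by role; dashed lines mark 2-fold, open points are genes under an FPKM of 1 in both libraries, and points without a line have an interval narrower than the point or no recovered reads. The right axis spans a far wider range, from Mxi1, 24.1 times lower in KO, to Ankrd37, 84.1 times higher.

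Genes next to the list in the same pathways were taken from lists of related genes. Of 20 other measured genes of glycolysis and glucose transport, 2 were past 2-fold on the CD93-positive side and 1 on the other (median 0.22). Hk3, a further hexokinase, had 8.28 and 1.45, 5.70 times higher (4.35 to 7.58), and Slc2a6, which encodes the transporter GLUT6, had 89.0 and 35.3, 2.52 times higher (2.37 to 2.69). Slc2a6 was thus above Slc2a1 in the CD93-positive library (62.0) and below it in the CD93-negative library (44.8). Pgm2l1, which makes glucose 1,6-bisphosphate, had 1.92 and 5.89, 3.06 times lower (2.62 to 3.58).

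Of 31 other measured hypoxia response genes, 1 was past 2-fold, Vegfa, which encodes a growth factor for vessels, at 719 FPKM with CD93 and 188 without (3.84 times, 3.75 to 3.92). Past 1.5-fold were 9 of them on the CD93-positive side and 1 on the other, and their median was 0.28. The pathways that branch from or follow glycolysis had 0 genes 2-fold apart: 11 of the pentose phosphate pathway (median 0.30), 12 of pyruvate entry to mitochondria (0.28) and 20 of the tricarboxylic acid cycle (0.26). Only 2.49% and 1.94% of all measured genes were past 2-fold higher and lower, so these counts of 0 are not read as a result. By any amount 7, 10 and 18 of these genes were higher and 4, 2 and 2 lower, against 54.4% and 45.6% of measured genes. Past 1.5-fold, 2, 3 and 0 were higher (7.62% of measured genes) and 0, 1 and 1 lower (6.92%). The median of the 15 glycolytic enzymes was 0.64.

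Marker genes of other cells also differed between these libraries. Of 9 measured genes of NK cells and ILC1s, 5 were past 2-fold on the CD93-negative side and 0 on the other, with a summed FPKM of 462 and 900. The 15 ILC3 core genes, all above 0, summed to 9795 and 2967, with 3 past 2-fold. Without the cytokine gene Il22 (7934 and 1655) the other 14 summed to 1862 and 1312. Actb had 1369 and 692, a difference of 0.98. Summed T cell markers were 3.11 and 11.2, and exocrine pancreas markers 395 and 618. Fibroblast markers summed to 11.8 and 4.63, of which Lum had 11.3 and 3.95 and the other 6 had 0.435 and 0.680 together. The part of these differences in the result on glycolysis was not tested. In bulk RNA a lower share of cells that express a gene and less of its RNA per cell cannot be told apart.

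**Figure D3:**
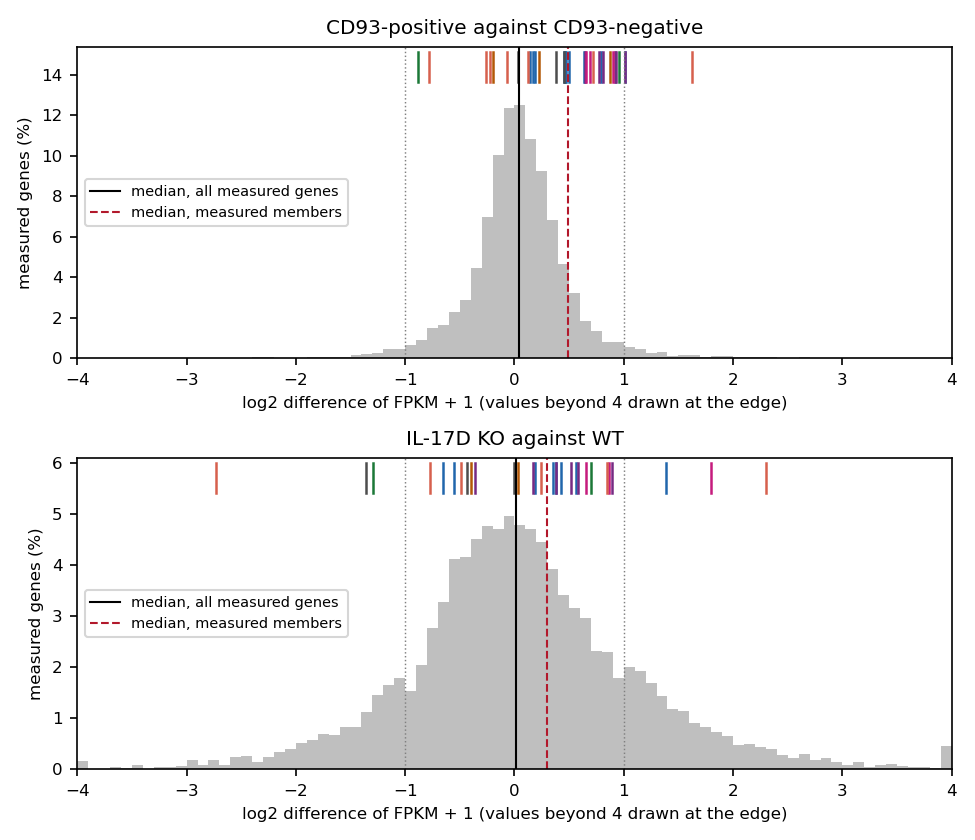
Share of measured genes (grey, in percent) by log2 difference of FPKM + 1 in the CD93 pair (top) and the KO and WT pair (bottom); coloured ticks are the measured genes of the list, the solid line is the median of all measured genes and the dashed line that of the list, and dotted lines mark 2-fold. The list's median lies at 0.49 against 0.04 in the narrow upper distribution and at 0.30 against 0.01 in the much wider lower one.

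Between KO and WT ILC3s the list had no common direction. Its counts past 2-fold were small and changed with the settings, and are not read as a departure from the shares of all measured genes. Of 30 members, 3 (Ankrd37, Egln1 and Pfkm) were past 2-fold on the KO side, where 16.6% of the 12376 measured genes were, and 3 (Mxi1, Higd1a and Slc2a1) on the WT side, where 12.7% were. At 1.5-fold these counts were 8 and 5 (26.5% and 22.9% of measured genes), and by any amount 19 were higher and 11 lower (50.5% and 49.5%). The median difference was 0.30, with lower and upper quartiles of -0.42 and 0.64, against a median of 0.01 over all measured genes. Of the 6 members that reached 20 FPKM, 4 were higher and 0 past 2-fold on either side. Among the 3096 such genes 42.4% were higher, 15.1% past 1.5-fold and 8.11% past 2-fold, with 4.65% past 2-fold on the WT side. Scaled to a common sum, the medians of both the list and all genes were higher, at 0.47 and 0.17.

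**Figure D4:**
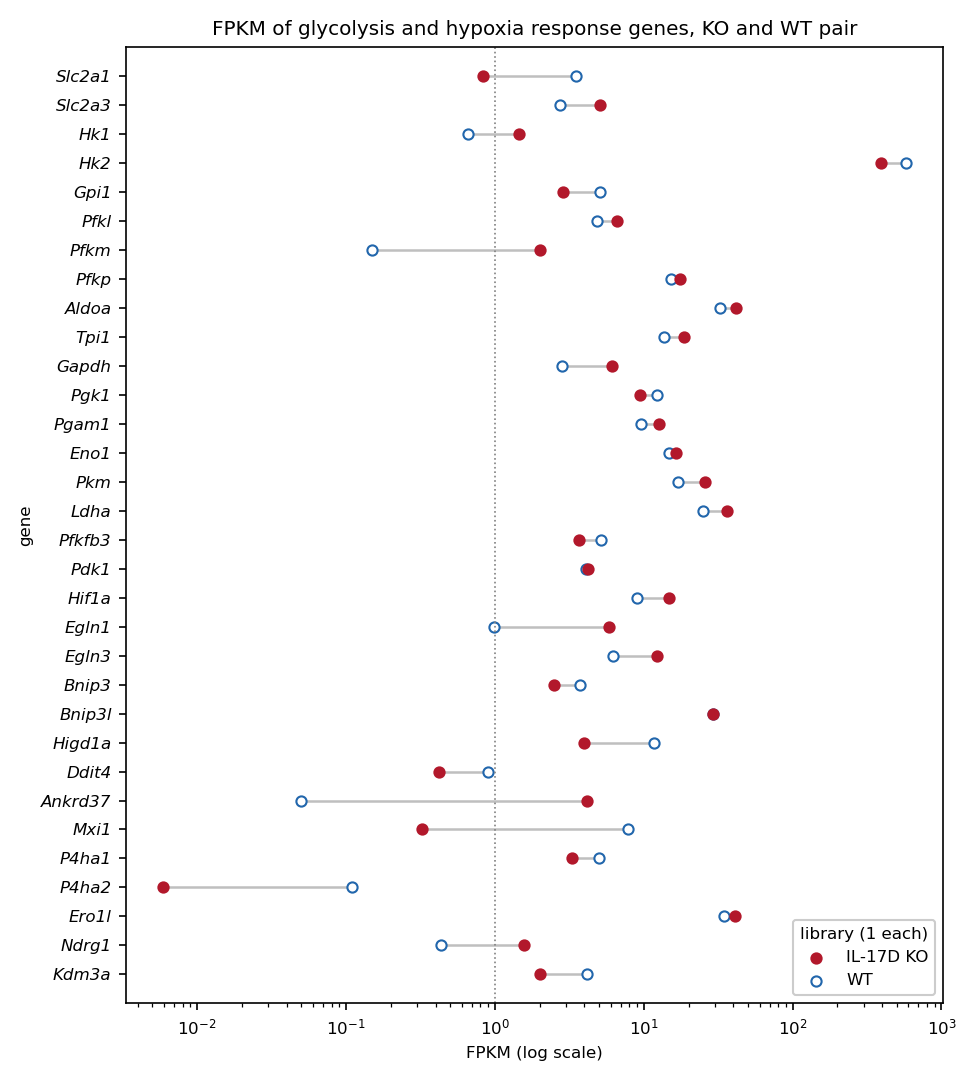
FPKM (log axis) of the 32 tabulated genes of the list in the IL-17D KO (filled) and WT (open) library, 1 library each, ordered by role; the dotted line marks an FPKM of 1. Hk2 stands alone on the right with 395 and 581, and Ddit4 and P4ha2 lie under the dotted line in both libraries.

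Hk2 was the highest glycolytic enzyme gene of the list in this pair. It stood at 395 FPKM in KO against 581 in WT, 1.47 times lower in KO (1.46 to 1.49), and took 66.6% and 79.1% of the summed FPKM of the 14 tabulated enzymes. The next highest enzyme gene of the list, Aldoa, had 41.7 and 32.4, and Gapdh had 6.11 and 2.83. Hk1 had only 1.46 and 0.665, so Hk2 was 270 and 873 times as high as its paralog. In the rank order of all genes of each library Hk2 lay at the 98.95 and 99.2 percentile in KO and WT, and Gapdh at the 62.8 and 49.7 percentile. Rows with clone names took 34.4% and 36.8% of the summed FPKM in KO and WT.

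Near-copies of several glycolytic genes were tabulated in this pair. Of the 35 genes, 13 have at least 1 such pseudogene in GENCODE M21. For 5 of these a copy had a row of its own in the KO and WT table, and for 0 in the CD93 table. Pgk1-rs7, identical to Pgk1 over 1255 aligned bases, stood at 41.7 FPKM in KO against 65.8 in WT, where Pgk1 had 9.37 and 12.3. Tpi-rs11 had 52.0 and 29.7 beside 18.7 and 13.7 for Tpi1, and Pgam1-ps2, identical over 765 aligned bases, had 18.3 and 16.4 beside 12.8 and 9.57 for Pgam1. In these 3 cases the copy was listed above the gene in both libraries. Gapdh-ps15 (5.77 and 4.36) lay below Gapdh in KO and above it in WT. Gm3222, a further Gapdh copy, had 1.05 and 0.774, and Ldha-ps2 (8.37 and 7.58) lay below Ldha in both. Eno1b, annotated as a protein-coding gene and so outside the pseudogene search, is 99.5% identical to Eno1 over 1736 aligned bases. Named after its values were seen, it had a row in both tables, with 107 and 92.8 FPKM in KO and WT beside 16.6 and 14.7 for Eno1. In the CD93 pair Eno1b had 23.3 and 13.6 beside 323 and 183 for Eno1. The values of these genes and their copies are uncertain, since near-identical copies can split reads. With gene and copy added, the difference was -0.60 for Pgk1, 0.69 for Tpi1, 0.25 for Pgam1 and 0.44 for Ldha, the same direction as the gene alone in each case.

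**Figure D5:**
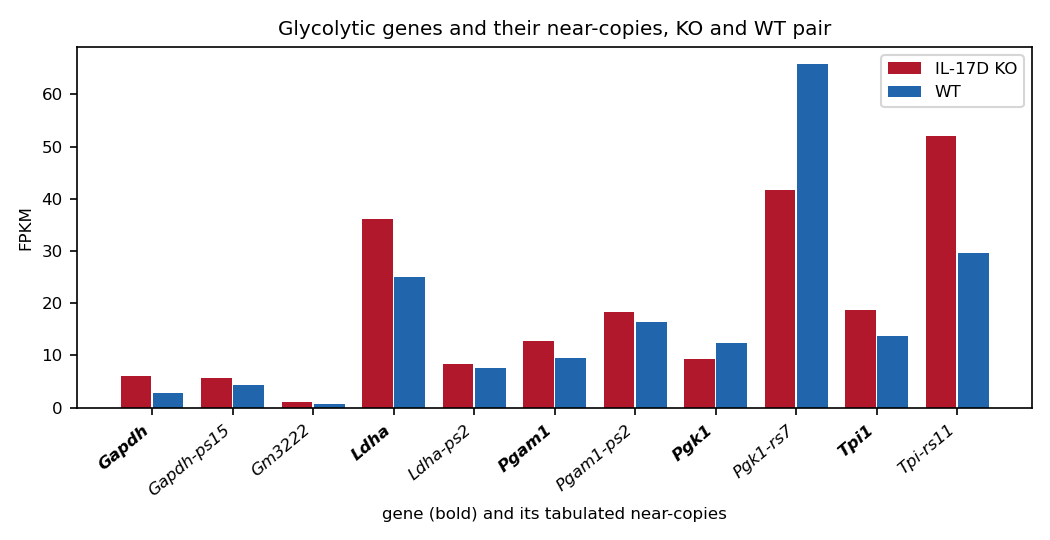
FPKM (linear axis from 0) in the IL-17D KO and WT library, 1 each, of 5 glycolytic genes (bold) and of the near-copies of each that have a row in the same table. Pgk1-rs7, Tpi-rs11 and Pgam1-ps2 stand above their genes in both libraries.

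Of the 14 measured enzymes in this pair, 11 were higher in KO and 3 lower, with a median of 0.38 and 1 past 2-fold. That gene was Pfkm, at 2.01 FPKM in KO against 0.149 in WT from 181 and 13 reads, 13.5 times higher (7.67 to 25.8). Ldha had 36.2 and 24.99, 1.45 times higher (1.37 to 1.53), and Pkm had 25.8 and 16.9, 1.52 times (1.44 to 1.61). Gapdh was 2.16 times higher as a ratio (1.88 to 2.48) and 0.89 on the log2(FPKM + 1) scale. Hk2, Gpi1 (2.88 and 5.10) and Pgk1 were the 3 lower enzymes. Eno1 (16.6 and 14.7), Pfkl (6.64 and 4.88) and Pfkp (17.4 and 15.2) were higher by at most 1.36 times.

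The glucose transporters went in opposite directions here too, with their sides exchanged relative to the CD93 pair. Slc2a1 stood at 0.834 FPKM in KO against 3.49 in WT, 4.18 times lower (3.26 to 5.42), and Slc2a3 had 5.10 and 2.76, 1.85 times higher (1.66 to 2.06). Slc2a3 was thus above Slc2a1 in the KO library and below it in the WT library. Of the regulators, Pfkfb3 had 3.66 and 5.15, and Pdk1 had 4.25 and 4.12 with an interval that included 1 (0.938 to 1.14).

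Hif1a and the sensors on the list had higher values in the KO library. Hif1a had 14.7 in KO and 8.99 in WT, 1.64 times higher (1.53 to 1.75), and Egln3 had 12.2 and 6.24, 1.96 times (1.74 to 2.20). Egln1 had 5.87 and 0.981, from 570 and 92 reads, 5.99 times higher (4.80 to 7.54). These 3 genes were past 1.5-fold on the KO side here and on the CD93-positive side in the other pair. The remaining components did not share this direction: of 16 measured genes outside the list, Siah1b was past 2-fold on the KO side and Siah2 and Egln2 on the WT side, with a median of -0.44. Egln2, the remaining prolyl hydroxylase gene, named after its values were seen, had 0 reads in KO and 196 in WT. Arnt had 9.08 and 13.7, Vhl 10.9 and 5.58, Siah1b 6.85 and 0.235 and Siah2 1.56 and 6.53, the Siah genes encoding ubiquitin ligases that act on the hydroxylases.

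The hypoxia targets held the widest ratios of the list. Ankrd37, an ankyrin repeat gene induced by HIF-1 (chromosome 8, 45996902 to 46005707, minus strand), stood at 4.19 FPKM in KO against 0.0498 in WT, from 174 and 2 reads, 84.1 times higher (22.9 to 700). Mxi1 had 0.323 and 7.80, 24.1 times lower, with no recovered reads and so no interval. Higd1a had 3.95 and 11.7, 2.95 times lower (2.60 to 3.36). Ndrg1 (1.58 and 0.436) was higher and Kdm3a (2.01 and 4.16) lower, both with log2 differences under the 2-fold limit, 0.84 and -0.78. Bnip3 (2.50 and 3.72) and P4ha1 (3.30 and 5.04) were lower in KO, and Bnip3l had 29.2 in both libraries. Ero1l, which encodes an endoplasmic reticulum oxidase, had 41.3 and 34.7. Ddit4, which had the largest ratio of the list in the CD93 pair, had 0.422 and 0.896 from 20 and 41 reads and fell short of the limit for a measured gene, as did P4ha2 with 1 and 18 reads.

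Genes of low counts were far apart often in this pair: of the 3674 measured genes with 100 to under 1000 recovered reads over both libraries, 40.7% were past 2-fold in either direction, against 4.39% of the 592 with 10000 or more. Ankrd37, Pfkm, Egln1 and Slc2a1 were all in the former class. Higd1a, with 324 and 924 reads, lay between these classes and was past 2-fold too. Counting intervals that excluded 1 were common in this pair. They were found for 28 of the 30 list genes with recovered reads and for 86.7% of all 10167 genes with recovered reads. Among genes that reached 20 FPKM these were 5 of 6 members and 90.6% of all 1891.

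Of the related genes in this pair, 5 of 16 measured genes of glycolysis and glucose transport were past 2-fold on the KO side and 3 on the WT side (median 0.27). Pgm2 (6.73 and 0.289), Slc2a8 (6.97 and 0.466) and Pgm1 (30.6 and 10.3), which encode phosphoglucomutases and the transporter GLUT8, were those that reached 5 FPKM; Gapdhs, Hk3, Tigar and G6pc3, named after their values were seen, were among those that did not. Of 24 other hypoxia response genes, Hmox1, also named afterwards (4.04 and 0.0876), was past 2-fold on the KO side and 6 were on the WT side (median 0.19), among the latter Pdk3 (1.27 and 7.23), Adm, which encodes adrenomedullin (1.01 and 5.75), and Fam162a (6.65 and 21.6). Vegfa had 5.66 and 4.24. Past the same limit, the pentose phosphate pathway had 1 of 9 genes on the KO side and 3 on the WT side, Prps2 among the latter (4.16 and 11.1). Pyruvate entry had 2 of 11 on the KO side, with the phosphatase gene Pdp2 (18.1 and 4.37), and 1 on the WT side. The tricarboxylic acid cycle had 0 of 20 on the KO side and 1 on the WT side, Idh1, named after its values were seen (0.0267 and 4.16).

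Markers of other cells also differed between the KO and WT libraries, not all to the same side. All 12 exocrine pancreas genes were past 2-fold on the KO side, with a summed FPKM of 1658 and 7.43 and 8 of the 12 at 0 in WT. Of 10 tabulated epithelial genes 6 were past 2-fold on the KO side and 1 on the WT side (sums 1070 and 300), with Epcam at 2.25 and 2.35 and Reg4 and Cdh1 at 0 in KO. Past 2-fold on the KO side were also 6 of 10 T cell genes (sums 1282 and 888), 3 of 7 B and plasma cell genes (4666 and 2836), 3 of 9 NK cell and ILC1 genes (1195 and 787) and 5 of 8 macrophage, monocyte and dendritic cell genes (72.6 and 21.97), the last with 2 on the WT side. On the WT side alone were 2 of 6 fibroblast and smooth muscle genes (0.410 and 5.83) and 2 of 4 erythroid genes (24.8 and 22.4). The 2 endothelial genes (17.4 and 12.0) had 0 past 2-fold. The 15 ILC3 core genes had 0 past 2-fold, and summed to 13680 and 17968 with the cytokine gene Il22 and to 1909 and 1866 without it. The part of these cells or their RNA in the differences of the list was not tested.

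The pairs share no library. Of the 29 genes measured in both, 15 were higher in KO and in CD93-positive ILC3s, 9 were lower in KO and higher in CD93-positive ILC3s, 3 were higher in KO and lower in CD93-positive ILC3s, and 2, Mxi1 and Kdm3a, were lower in both. Over all 7595 genes measured in both pairs, these shares were 28.0%, 27.8%, 23.8% and 20.3%.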

How the data were processed

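RNA of 4 sorted ILC3 libraries, 1 per group, was analysed from 2 joint tables of FPKM values, which the authors deposited. Bowtie2, featureCounts, Subread, edgeR and DESeq2 and the build mm10 are named, without versions or roles, per the submitters' processing notes. The sources used here do not say how reads with several matches were counted. The 35 members and all gene lists were chosen with earlier results of these data known.

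Differences are log2((FPKM + 1)/(FPKM + 1)) within a table, for genes with FPKM of 1 or more in a library. Reads were recovered from FPKM and GENCODE M21 exon lengths, whole within 0.02 for 92.1% and 91.9% of values in KO and WT and for 98.1% and 98.2% in CD93-positive and CD93-negative ILC3s. They were used for 95% counting intervals and read classes only. With 1 library per group no test was run. Every member is named. Of the related genes, those past 2-fold with FPKM of 5 or more are named, up to 4 a list and pair, with Arnt, Vhl and Vegfa, and others are marked as named after their values were seen. Near-copies are annotated pseudogenes of 90% identity or more over 200 bases or more (BLAST+ 2.17.0). Promoters came from RefSeq GRCm38.p6. The calculation was tested on simulated data. Python 3.11.15, pandas 2.3.3, numpy 2.4.6, scipy 1.17.1 and matplotlib 3.10.9 were used. Alternatives were other pseudocounts, filters, scalings and limits.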

Additional observations from a re-analysis of the deposited data

How the results depend on the processing

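In the KO and WT pair (median 0.30, 3 genes of the list past 2-fold higher and 3 lower), a pseudocount of 0.1 gave 6 higher, and a pseudocount of 5 gave a median of 0.21, 0 higher and 1 lower. Without a filter the median was 0.22, and with genes of 5 FPKM or more 1 was higher. Scaling to the mean of the summed FPKM gave a median of 0.47 and 5 higher. A 3-fold limit left 1 lower. Of 3 alternatives chosen after seeing the data, a filter of 20 FPKM left 0 higher and 0 lower, beside 8.11% and 4.65% of all such genes. Leaving out genes with a tabulated pseudogene copy gave a median of 0.19, and leaving out Eno1 as well gave 0.22. In the CD93 pair (median 0.49, 3 higher, 0 lower), 1 was higher with a pseudocount of 5, with a median ratio of 1 (Hk2 and Pgam1 at 0.97 each) and at 3-fold. Scaling to the mean of the sums gave 1 higher and 1 lower, Slc2a3 at -1.04, with 1.71% of all measured genes past 2-fold higher and 2.92% lower. The cause of these shifts was not tested. Shares of all measured genes past a limit depend on the setting too, and for most alternatives they are not given here. The counts are therefore not read as changes of the list against other genes. No paired analysis was possible because each group has 1 library, and none could be left out. With 2 WT reads, the ratio of Ankrd37 had a counting interval of 22.9 to 700.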
